A study of Caenorhabditis elegans with 2 samples.

Results

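The data are 883 peaks of CEH-9 whose summits lay inside the coding exons of protein-coding genes, out of 30000 peaks in a pooled list made from both replicates. CEH-9 is a homeobox transcription factor of the worm Caenorhabditis elegans, and its positions on chromatin were mapped by chromatin immunoprecipitation sequencing (ChIP-seq). Worms of strain OP202 carry the unc-119(ed3) allele and the integrated transgene wgIs202, a CEH-9 fusion with GFP and FLAG at its C-terminus. Chromatin from whole late embryos of mixed sex, 4.75 h after synchronization by egg bleaching, was sonicated, and an anti-GFP antibody pulled down the fusion protein with its DNA. There were 2 biological replicates of this 1 group and no second condition, and the control libraries were not analysed here. Whole animals were used, so no peak can be placed in a cell type, and sequencing depth is unknown because the lists hold no read counts.

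The 883 summits were selected on the authors' pooled signal. The list was ranked by signal, ranks 1 to 3000 were kept, and 232 summits within 100 bp of a small RNA gene (tRNA, snoRNA, snRNA, RNase P, RNase MRP or signal recognition particle RNA) were dropped. Of the 2768 left, 883 (31.9%) lay in coding sequence, 935 in introns, 851 between protein-coding genes and 99 in untranslated regions. The other strong summits below are the 1885 of these last 3 classes together, and the weaker coding summits are the 8344 in coding sequence past rank 3000, also away from small RNA genes. All shares and medians are descriptions with no test, since peaks of a list share their libraries. Intervals are exact 95% binomial (Clopper-Pearson) ones for shares and order-statistic ones for medians, and they reflect only how many peaks or genes were counted.

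Homeodomain proteins such as CEH-9 bind DNA through a helix that reads short AT-rich sites built around TAAT, usually in promoters, introns and other non-coding DNA. Coding exons of this worm are richer in G and C than its introns and the DNA between genes. Its cuticle is built mostly from collagens, a large gene family whose proteins repeat glycine and 2 further residues, often proline, and whose codons for these residues begin with GG or CC. The cuticle of the first larva is made in the later part of embryogenesis.

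Windows reaching 75 bp to each side of the summit show what kind of sequence the peaks were on. They are given 5′ to 3′ on the coding strand of the host gene, from the RefSeq genome of the ce11 assembly. The first 6 are the strongest collagen members, the strongest GC-rich members without a run of glycine triplets, and the strongest with such a run outside the collagen list. Capitals mark codons for glycine in the reading frame, and intron bases, where a window leaves the exon, stay in lower case.
col-105, chrIV:1358202-1358352, minus strand: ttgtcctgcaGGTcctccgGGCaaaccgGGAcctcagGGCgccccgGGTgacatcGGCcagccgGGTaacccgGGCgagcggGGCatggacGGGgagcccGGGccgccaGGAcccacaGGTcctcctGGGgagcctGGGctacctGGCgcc
col-183, chrX:13467123-13467273, minus strand: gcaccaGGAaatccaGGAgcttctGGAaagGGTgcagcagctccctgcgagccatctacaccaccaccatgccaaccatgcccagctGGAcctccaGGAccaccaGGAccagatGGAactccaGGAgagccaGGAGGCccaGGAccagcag
dpy-7, chrX:7536937-7537087, minus strand: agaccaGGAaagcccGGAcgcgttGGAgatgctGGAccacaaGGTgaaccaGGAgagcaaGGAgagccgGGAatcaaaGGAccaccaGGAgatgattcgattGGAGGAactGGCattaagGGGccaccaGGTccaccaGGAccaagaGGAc
Y43F8C.6, chrV:19635179-19635329, minus strand: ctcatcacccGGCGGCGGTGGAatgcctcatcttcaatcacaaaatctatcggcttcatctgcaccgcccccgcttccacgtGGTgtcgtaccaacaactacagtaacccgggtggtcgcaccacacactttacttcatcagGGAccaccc
idpc-1, chrIII:11427882-11428032, plus strand: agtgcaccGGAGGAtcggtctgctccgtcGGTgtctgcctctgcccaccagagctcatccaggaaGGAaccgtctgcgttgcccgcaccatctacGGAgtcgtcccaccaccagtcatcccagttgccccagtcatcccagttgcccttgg
ram-2, chrII:11015950-11016100, minus strand: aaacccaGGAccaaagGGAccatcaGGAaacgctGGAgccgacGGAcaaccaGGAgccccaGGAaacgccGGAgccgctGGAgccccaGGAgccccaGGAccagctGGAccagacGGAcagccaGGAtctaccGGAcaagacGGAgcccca
The collagen windows of col-105, col-183 and dpy-7 hold 16, 12 and 17 glycine codons, and that of ram-2 holds 16. Those of Y43F8C.6 and idpc-1 hold 6 and 5 and are of like GC content, at 56.3% and 62.9% against 57.6% in dpy-7 and 74.8% in col-105.

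The strongest members with a homeodomain core site make the contrast, and capitals there mark TAATTA or TAATTG as read on either strand.
pes-4, chrIII:1217599-1217749, minus strand: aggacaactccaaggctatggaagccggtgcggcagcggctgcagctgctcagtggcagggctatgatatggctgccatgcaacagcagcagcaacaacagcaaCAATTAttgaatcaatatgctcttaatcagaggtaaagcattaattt
sna-1, chrV:6709934-6710084, minus strand: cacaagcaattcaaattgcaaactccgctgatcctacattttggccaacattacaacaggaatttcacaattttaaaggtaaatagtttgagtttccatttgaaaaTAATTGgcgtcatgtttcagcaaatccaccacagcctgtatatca
enee-1, chrII:24765-24915, plus strand: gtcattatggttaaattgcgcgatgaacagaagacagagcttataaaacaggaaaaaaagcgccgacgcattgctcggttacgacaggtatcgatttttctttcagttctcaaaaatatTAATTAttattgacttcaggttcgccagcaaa
In pes-4 the core lies in coding bases, beside a run of CAG and CAA codons. In sna-1 and enee-1 it lies in the intron beside the exon that holds the summit, and these windows have 35.8% and 37.8% GC.

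The pooled signal of the 883 ran from 95.97 (in Y43F8C.6) to 45.03, with a median of 50.4, while the highest peak of the whole list reached 416. Their deposited −log10 q ran from 2.49 down to 0.354 with a median of 0.489, so most had low significance on the authors' own scale. All 883 peaks were 420 bp wide. Only 13 of the 883 were among the 207 peaks that passed the authors' irreproducible discovery rate (IDR) threshold, a set that makes up 0.69% of the pooled list and is the same as its 207 strongest peaks. Just inside the rank limit stood the summits in folt-1, ced-6, F21F3.2, ppfr-4 and F14F3.4 (signal 45.11 to 45.03), and just outside it those in exc-6, K11D2.4, F43B10.1, W05F2.4 and svh-5 (45.01 to 44.98).

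Coding sequence makes up 24.6% of the nuclear genome and took a slightly higher share of the summits at nearly every rank. Among summits away from small RNA genes the coding share was 16.7% (13 of 78) at ranks 1 to 207, 32.5% from there to rank 1000, 31.1% between ranks 1000 and 2000 and 33.4% between 2000 and 3000. Between ranks 3000 and 6000 it came to 32.6%, and past rank 21000 to 29.7%. It was 31.6% between ranks 6000 and 12000 and 31.8% between 12000 and 21000. Past the first 207 ranks the share thus stayed between 29.7% and 33.4%, with its lowest value at the weakest signals. At ranks 1 to 207 it was lower still, over few summits.

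The replicates did not contribute equally, so the coding summits' GC content, exon length, core sites, and host and collagen counts are also given below from each replicate's own list. Other gene lists, chromosomes, other motifs and residue composition were taken from the pooled list alone. Of the 883 members, 479 (54.3%) had a summit within 100 bp among the 3000 strongest of replicate 2 (over the whole pooled list, 9.21% did), and 193 (21.9%) among the 3000 strongest of replicate 1 (pooled list, 7.45%). Just 59 (6.68%) had one among the 3000 strongest of both (pooled list, 1.29%), and 270 (30.6%) among those of neither. The other strong summits gave 53.1%, 28.8%, 10.5% and 28.7% for the same 4 shares. Anywhere in the 30000 lines of a replicate list, 816 members were found in replicate 2, 580 in replicate 1 and 15 in neither. The pooled list was made from the same libraries and the members were chosen by pooled signal, so these shares describe where that signal came from. Their direction is no independent evidence.

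**Figure D1:**
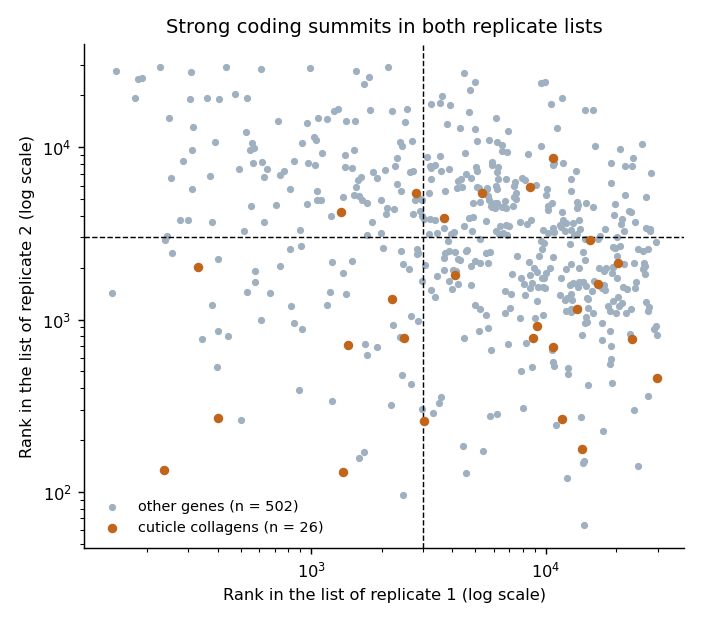
Rank of the 528 members found in both replicate lists, in replicate 1 (horizontal, log scale) against replicate 2 (vertical, log scale); each point is a summit, orange for the 26 in cuticle collagen genes, and the dashed lines stand at rank 3000. Few points fall in the lower left, where both replicates rank the summit among their 3000 strongest, and many lie low in replicate 2 but to the right in replicate 1.

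A comparison that does not use pooled signal starts from the 3000 strongest of one replicate and looks in the other. Of the 804 coding summits of replicate 1 chosen in the same way, 56 (6.97%, interval 5.30 to 8.95%) had a summit within 100 bp among the 3000 strongest of replicate 2, against 3.44% of all summits of replicate 1. Weaker coding summits of replicate 1 gave 2.70% (2.35 to 3.08%), its strong intron summits 8.83% (7.12 to 10.8%) and its strong summits between genes 11.1% (9.12 to 13.3%). In the opposite direction, 52 of the 911 coding summits of replicate 2 (5.71%, 4.29 to 7.42%) were found again, against 3.66% of all its summits. The share was 2.42% of its weaker coding summits, 9.89% of its strong intron summits and 10.96% of those between genes. In both directions the interval of strong coding summits lay above that of weaker ones and below that of strong summits between genes, and these differences were not tested. Most strong coding summits of either replicate were thus not among the 3000 strongest of the other.

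Strong coding summits lay on GC-rich sequence. These windows of the members had a median GC content of 47.7% (47.0 to 48.3%), against 43.1% (42.4 to 43.7%) at the other strong summits and 43.7% at weaker coding summits. Coding sequence cut into 99119 whole windows of that length, called all coding windows below, had a median of 42.4%. Coding stretches shorter than a window, and the remainders of longer ones, are not in these windows. All coding bases together had 42.85% GC. Of the members 16.99% were over 55% GC, as were 8.33% of other strong summits, 5.38% of weaker coding summits and 3.29% of coding windows. Just below the rank limit, between ranks 3000 and 6000, coding summits had 45.7%, and among the last 3000 ranks they had 43.1%. Replicate 1's own list gave 44.4% for its 804 strong coding summits and 42.4% for its weaker ones, and replicate 2's own list gave 48.3% for its 911 and 43.7%. Strong coding summits were the more GC-rich in both, by a wider margin in replicate 2.

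**Figure D2:**
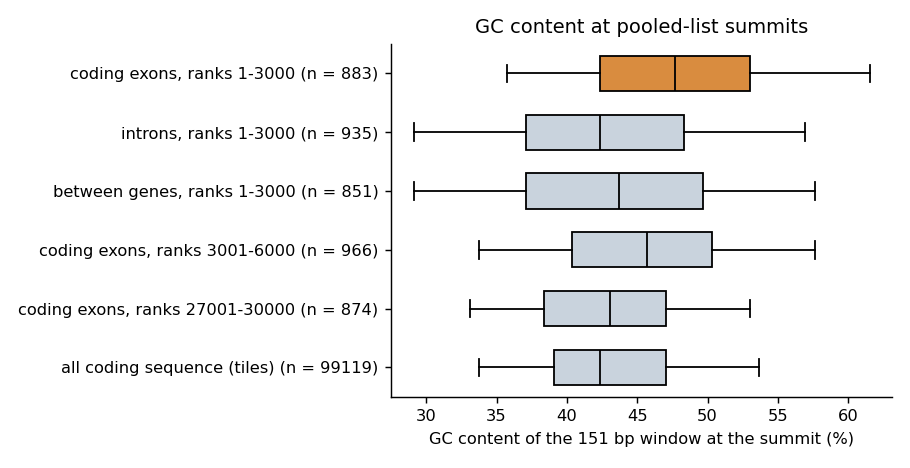
GC content of the window of 75 bp to each side at pooled-list summits (horizontal axis, percent) by location and rank, and over coding sequence cut into whole windows. The line in each box is the median, the box spans the 25th to the 75th percentile and the whiskers the 5th to the 95th. Strong coding summits have a median of 47.7% and strong summits in introns and between genes 42.4% and 43.7%.

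GC content followed signal at members, and at summits outside coding exons as well. Outside coding exons the median fell from 47.0% at ranks 1 to 207 to 44.4% up to rank 1000, 42.4% up to 2000, 41.7% up to 3000 and 37.1% past 21000. The excess over background was no larger at members: they had 47.7% against the 42.4% of coding windows, and the other strong summits 43.1% against the 35.4% of the nuclear genome. Among members, the first 100 had a median of 53.6%, the next 200 had 47.7%, the next 300 had 47.0% and the last 283 had 46.4%. Across the 883 the rank correlation of signal and GC was weak (Spearman's rho 0.17, windows of the same libraries), and it was 0.13 across the weaker coding summits. Mean GC in 51 bp windows was 50% at the summits of members, 43.2% and 42.7% at 200 bp to the left and right, and 37.6% and 37.5% at 400 bp. The other strong summits peaked at 43.3% and weaker coding summits at 46.2%, and all 3 sets were between 36.3% and 37.5% at 1000 bp to either side. A member's window was higher in GC than the whole coding sequence of its host gene in 453 of 883 cases (51.3%), with a median difference of 0.21 percentage points. The hosts themselves were GC-rich, with a median of 47.6% over the members against 44.9% over the weaker coding summits.

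**Figure D3:**
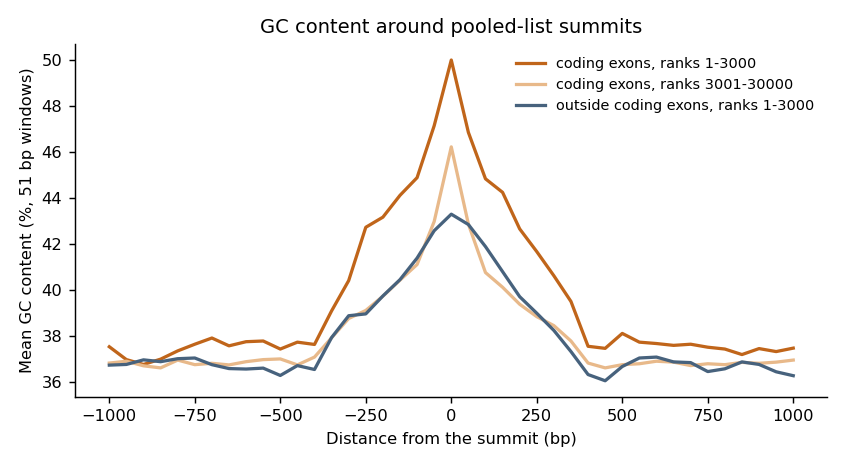
Mean GC content in 51 bp windows (vertical axis, percent, which does not start at 0) against distance from the summit (horizontal axis, bp) for members, weaker coding summits and strong summits outside coding exons. Members reach 50% at the summit and 37.6% at 400 bp to the left, and weaker coding summits reach 46.2%.

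The strongest member lay in the last coding exon of Y43F8C.6 (signal 95.97), at rank 64 in replicate 2 and rank 14565 in replicate 1. The cuticle collagen col-105 followed (89.7), at ranks 133 and 235, so both replicates held it high. The next were idpc-1 (87.7), with no summit within 100 bp in replicate 1, col-183 (85.7), F47B8.14 (84.0) and set-16 (81.8), a histone methyltransferase of the MLL family. F47B8.14 stood at rank 96 in replicate 2 and 2460 in replicate 1, and set-16 at 157 and 1598. Then came grsp-1 (81.3), with none in replicate 2, and dos-3 (79.7), at rank 121 in replicate 2 and 12273 in replicate 1. The collagens dpy-7 (78.98), which sets body shape, col-91 (78.7) and col-51 (75.9) came next.

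The rest of the 25 strongest ran from 74.5 to 70.4 and fell in genes of many kinds. They were F25E5.16, the solute carrier gene slc-17.6, pes-4, Y79H2A.3, sna-1, W09G3.6, the DnaJ chaperone gene dnj-12, the C-type lectin gene clec-78 and the nucleolar protein gene nol-14. R74.7, ZK285.2, the cuticlin gene cut-2, rrf-2, which encodes a homologue of RNA-directed RNA polymerase, and the respiratory complex subunit gene ucr-2.3 completed them. Window GC in these 25 ran from 35.8% in sna-1 to 74.8% in col-105, so not all strong members were GC-rich.

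The 59 members that both replicates placed among their 3000 strongest differed from the others. Their median window GC was 52.3% and their median exon length 538 bp, against 44.4% and 246 bp in the 134 members held high by replicate 1 alone and 48.3% and 356 bp in the 420 held high by replicate 2 alone. The 270 held high by neither had 46.4% and 342 bp. Among the 59 were 7 collagens, with col-105 (ranks 235 and 133), col-183 (402 and 270) and col-77 (329 and 2024) as examples. Others were clec-78 (1414 and 1413), nol-14 (341 and 769), nlf-1, which helps to place the sodium leak channel (501 and 261), the cullin gene cul-1 (1692 and 722) and the GATA factor gene elt-3 (819 and 1199), all named here after their values were seen. High rank in both also meant high pooled signal (median 64.5 against 50.4 over all members), and signal and GC rose together, so the share due to either was not tested.

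The 883 members fell in 819 host genes, which is 4.1% of the 19973 protein-coding genes. Hosts had longer coding sequences than all genes (median 1497 against 987 bases) and more GC in them (47.4% against 42.5%). With genes sorted into deciles by the GC of their coding sequence, the share that held a member rose from 0.351% (7 of 1997) in the lowest decile to 1.85% in the middle (decile 5), 8.61% in decile 9 and 14.1% (281 of 1998, 12.6 to 15.7%) in the highest. The median coding length was 975 bases in the lowest decile, 1083 in decile 5 and 684 in the highest, and the part of length was not tested. Per coding Mb, members went from 3.65 to 164. In replicate 2's own list the share of hosts went from 0.150% to 13.9% between the lowest and highest decile (4.21% of all genes), and in replicate 1's own list from 0.651% to 7.96% (3.84% of all genes).

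**Figure D4:**
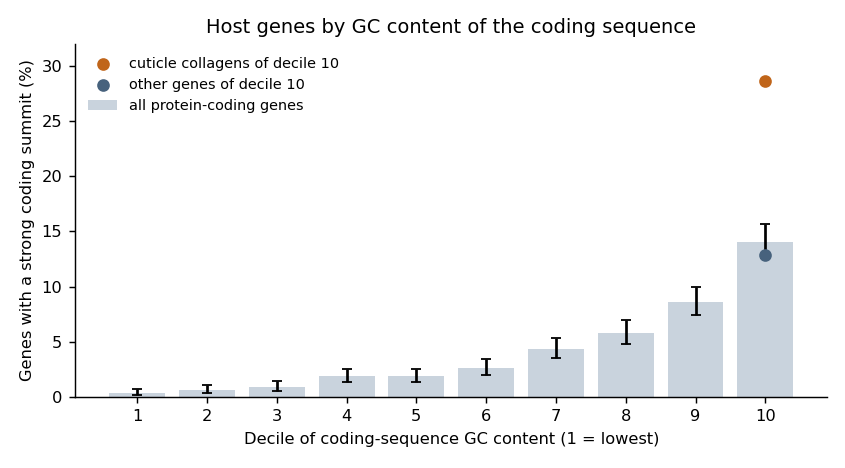
Share of protein-coding genes with a strong coding summit (vertical axis, percent) by decile of coding-sequence GC content (horizontal axis); error bars are exact 95% intervals, and points give the highest decile split into cuticle collagens and other genes. The bars go from 0.351% to 14.1%, and in the highest decile collagens stand at 28.7% and other genes at 12.9%.

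Cuticle collagens were the gene list with the largest share of hosts. Of 175 collagen genes, 43 held a member (24.6%, 18.4 to 31.6%, against 4.1% of all genes), 1 each. That is 252 members per coding Mb, against 36.04 over all coding sequence. Weaker coding summits were also denser in collagens, at 709.1 per coding Mb against 340.6 over all genes. A collagen excess was thus not particular to members. GC content moved with this list: 150 of the 175 fall in the highest GC decile, and so do all 43 hosts. Within that decile 28.7% of collagens and 12.9% of the 1848 other genes held a member, and the part of GC or of coding length in that difference was not tested. In replicate 1's own list 19 collagens were hosts (10.9%, 6.67 to 16.4%) and in replicate 2's own list 52 (29.7%, 23.1 to 37.1%), so the count of 43 rests largely on replicate 2. The collagens that both lists named were col-2, col-14, col-51, col-77, col-91, col-105, col-106, col-173 and col-183, which is 9 of the 19 (47.4%) and of the 52 (17.3%). Over all hosts, 142 genes were shared, 18.5% of the hosts of replicate 1 and 16.9% of those of replicate 2.

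The 43 collagen members had signals from 45.1 to 89.7 (median 57.5) and window GC from 47.0% to 74.8% (median 60.9%). Of them 35 were among the 3000 strongest of replicate 2 and 9 among those of replicate 1, with 7 in both and 6 in neither. Most summits were in the last coding exon (33 of 43, single-exon genes included), at a median of 56.1% of the way along the coding sequence and 663 bp from the gene's start. In many of these genes that exon is most of the coding sequence, such as 831 of 912 bases in col-108. That part encodes the repeats in many members, and 41 of the 43 windows held a run of at least 5 glycine triplets. Most windows of the 121 weaker coding summits in cuticle collagen genes also held one, so it did not set members apart. Such a run is a row of triplets that each start with glycine. The other residues of a triplet were not checked, so a tract of glycines alone also counts as a run, here and below. Collagens with and without a member had similar coding sequences, with medians of 56.1% and 54.3% GC and of 918 and 912 bases. By chromosome, collagen hosts were 18 of 44 on IV, 11 of 32 on II, 8 of 30 on X, 2 of 13 on III, 2 of 33 on V and 2 of 23 on I. Besides the strongest, the hosts included genes known for body shape mutants: dpy-10 (60.2), sqt-3 (58.02), dpy-8 (54.99) and rol-6 (48.9).

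Outside the genes listed as cuticle collagens, glycine triplet runs were rare. They occurred in 16 of the other 840 members and in 34 of 8223 weaker coding summits outside the listed genes. Those 16 windows lay in ram-2, hrpa-1, rol-1 (2 neighbouring windows), idpa-3, F47B8.13, F53C3.6, grl-25, ddx-17, xrn-2, R13D11.10, col-99, cle-1, Y39A3B.7, idpa-1 and rde-12. They include a heterogeneous nuclear ribonucleoprotein (hrpa-1), RNA helicases of the DEAD-box type (ddx-17, rde-12), a nuclear exoribonuclease (xrn-2) and matrix collagens that are not part of the cuticle list (col-99, cle-1). The list was built from gene symbols, and 3 of the 16 windows, in ram-2 and rol-1, held runs of 16, 10 and 16 triplets, against 7 to 15 in the 4 strongest listed collagens. Whether these genes belong in the list was not settled here. Read as protein, member windows were rich in proline (8.25% of residues, against 6.19% at weaker coding summits and 4.91% in all coding sequence), glycine (8.55, 6.45 and 5.36%) and alanine (8.58, 7.53 and 6.35%). Without the listed cuticle collagens, proline was 7.30%, glycine 7.41% and alanine 8.54% at members. Isoleucine was lowest relative to the rest, at 4.35, 5.31 and 6.20%. Codons of the first group begin with GG, CC or GC and those of isoleucine with AT, so these shares and the GC content are not independent. Glutamine was also higher at members (5.13, 4.43 and 4.09%). Arginine was near level (5.45, 5.44 and 5.14%) and tryptophan lower (0.955, 1.095 and 1.108%). How far GC content accounts for the composition was not tested.

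With the listed cuticle collagens left out, members remained the more GC-rich. The matrix collagens col-99 and cle-1, and also ram-2 and rol-1, are not in that list and stayed in. The other 840 members had a median window GC of 47.0% and a median exon of 321 bp, against 43.7% and 271 bp at the 8223 weaker coding summits outside the listed genes. Of these 840 members 13.8% were over 55% GC, against 4.55% of those weaker summits.

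Several lists of structural genes had shares of hosts above that of all genes, with wide intervals. Basement membrane and other matrix genes had 5 hosts of 24 (20.8%, 7.13 to 42.2%), among them the papilin gene mig-6 (67.4), col-99 (48.2), cle-1 (48.1) and the dystroglycan gene dgn-1 (46.98). Genes of actin, tubulin, intermediate filaments and spectrins had 6 of 40 (15%), with tba-1 (59.8), ifa-1 (56.7), unc-70 (54.4) and sma-1 (48.1), a tubulin, an intermediate filament protein and spectrins. Muscle structure genes had 6 of 47 (12.8%), with the paramyosin gene unc-15 (56.4), the titin gene ttn-1 (52.8), the pharyngeal myosin gene myo-2 (50.7) and unc-97 (48.2). Cuticlins and related proteins had 4 of 41, with cut-2 (70.9), cutl-24, cut-6 and cutl-10. Long genes offer more sequence: per coding Mb, matrix genes had 30.5 members and muscle genes 41.3, close to the 36.04 of all genes, while actin and related genes had 58.95 and cuticlins 55.8.

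Several large lists of low-GC genes held few members. Chemoreceptors, the largest list, had 11 hosts of 1310 (0.840%, 0.420 to 1.497%), with a median coding GC of 37.1% and 8.46 members per coding Mb; sru-19 (54.3), srj-44, str-113 and srt-47 were the strongest. F-box genes had 1 of 322 (0.311%), fbxb-114 (47.2), and ion channels and receptors 6 of 263 (2.28%), with trpa-1 (53.7), lgc-35, twk-13 and kvs-5. Astacin proteases (40 genes) and guanylate cyclases (33) had none, which allows shares of up to 8.81% and 10.6%. The vitellogenins (6 genes) also had none, which allows up to 45.9%, although their median coding GC was 47.6%, above the 42.5% of all genes.

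Among genes for regulators, the share of hosts ran from 2.50% to 7.35%, on both sides of the 4.1% of all genes. Homeobox genes had 5 hosts of 102 (4.90%, 1.61 to 11.1%), with zfh-2 (59.5), zag-1 (50.3), alr-1 (48.4) and vab-15 (47.2) the strongest. Nuclear hormone receptors had 8 of 274 (2.92%), with nhr-86 (54.03), nhr-18, nhr-236 and nhr-82, and basic helix-loop-helix genes 1 of 40, hlh-30 (47.4). Per coding Mb, these lists had 48.3, 24.3 and 27.2 members. The other transcription factors had 10 of 136 (7.35%, 3.58 to 13.1%) and 71.3 members per coding Mb, above the 36.04 of all genes. These included elt-3, a regulator of hypodermal genes (65.5), the TCF gene pop-1 (54.5), the hunchback homologue hbl-1 (53.7) and the Notch pathway factor lag-1 (51.7). Hedgehog-related and patched-related genes had 5 of 85 (5.88%), or 36.6 per coding Mb, with grd-7 (63.1), grl-25 (52.1), ptc-1 and grl-9. Of those named, zfh-2, elt-3 and grd-7 were among the 3000 strongest of both replicates.

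Ribosomal protein and histone genes are both GC-rich, and the intervals of their shares of hosts overlapped. Cytosolic ribosomal proteins had 5 of 81 (6.17%, 2.03 to 13.8%), with rps-10 (66.8), rpl-29 (58.5), rpl-11.1 and rpl-4, at a median coding GC of 53.6%. Their coding sequence is short, and per coding Mb they had 121 members, the highest density of the lists after the collagens. Histones had 1 of 81 (1.235%, 0.0313 to 6.69%), the linker histone his-24 (46.3), at a coding GC of 53.1% and 31.8 members per coding Mb. The elongation factors had 1 of 6 (16.7%), eef-1B.1, or 118 per coding Mb from this single member. Heat shock and chaperonin genes had 2 of 31 (6.45%, 51.1 per coding Mb), cct-5 and cct-7. The rest were 8 of 88 cadherin and adhesion genes (9.09%), 7 of 90 cell cycle genes (7.78%) and 3 of 42 motor genes (7.14%). There were also 7 of 240 C-type lectins (2.92%), 4 of 132 germline genes (3.03%) and 2 of 145 neuropeptide and insulin genes (1.38%). The share of all genes was 4.1%. Per coding Mb, these lists had 33.3, 43.6, 18.8, 31.9, 19.6 and 44.25 members in that order, against 36.04 over all genes. The strongest hosts were cdh-10, unc-5, cdh-12 and unc-6 for adhesion, and cul-1, spd-1, cdc-25.2 and icp-1 for the cell cycle. For motors they were klp-7, hum-2 and nmy-2. For lectins they were clec-78, clec-80, clec-125 and clec-106, for the germline pgl-1, spe-9, car-1 and spe-8, and for neuropeptides ins-17 and nlp-56.

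**Figure D5:**
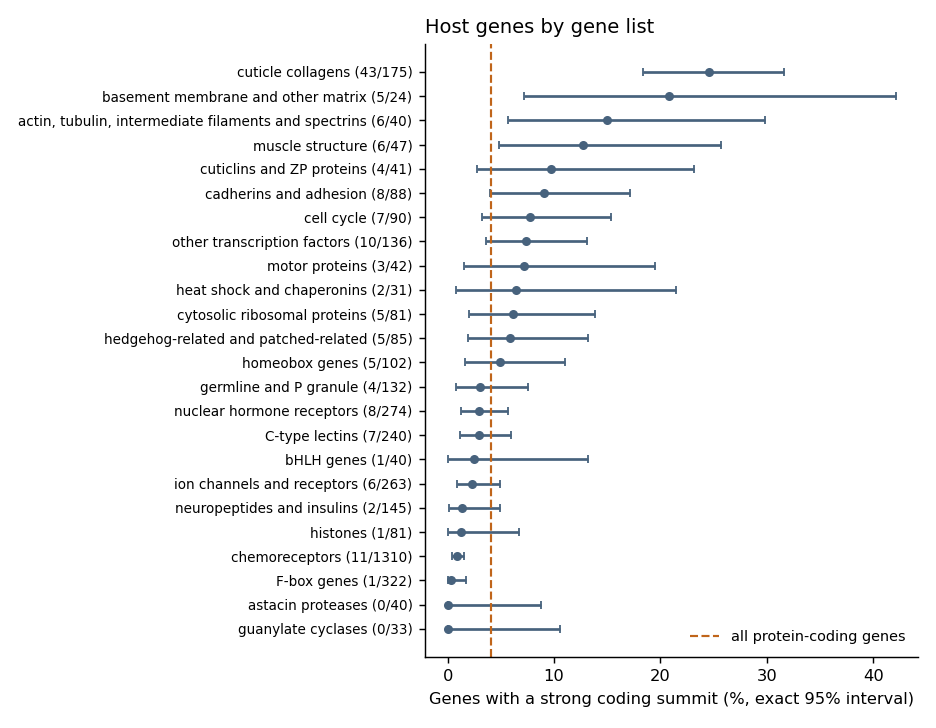
Share of the genes of each list that held a strong coding summit (horizontal axis, percent, with exact 95% intervals) for the 24 lists of at least 20 genes; hosts and genes are given beside each name and the dashed line is the share over all protein-coding genes, 4.1%. Cuticle collagens stand at 24.6% and chemoreceptors at 0.840%.

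Within genes, members lay in longer exons than weaker coding summits, and their places along the gene differed little from those of the weaker ones. The coding exon under the summit had a median length of 342 bp (middle range 186 to 646), against 292 between ranks 3000 and 6000 and 273 at weaker coding summits. The median base of all coding sequence lies in an exon of 251 bp. In replicate 1's own list the median was 290 bp and in replicate 2's 355 bp. Of 865 members in genes with several coding exons, 105 (12.1%) were in the first, 152 (17.6%) in the last and 608 (70.3%) between, against 12.1%, 14.7% and 73.3% of weaker coding summits. Summits within 1 kb downstream of the host gene's start numbered 361 (40.9%, 37.6 to 44.2%), against 37.6% between ranks 3000 and 6000 and 37% at all weaker coding summits. The median place was 45.9% of the way along the coding sequence and 47.8% for weaker summits.

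The members were spread over all chromosomes but, like the weaker coding summits, less densely on V and X. Chromosome III had 47.1 members per coding Mb, I had 42.6, II had 40.5, IV had 39.1, X had 24.9 and V had 24.7. Weaker coding summits came to 420, 392, 363, 323, 307 and 259 per coding Mb on the same chromosomes. The share on X was 9.97% (8.07 to 12.1%), against 13% of weaker coding summits and 15.9% of other strong summits. Coding sequence on V has the lowest GC (41.5%), and that on X has 43.4%, as high as on I.

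Homeodomain core sites were not more frequent at members than elsewhere in coding sequence. TAATTA or TAATTG on either strand occurred in 61 of the 883 windows (6.91%, 5.33 to 8.79%), against 11.5% (10.1 to 13.04%) of other strong windows, 10.8% (10.2 to 11.5%) of weaker coding windows and 10.3% of all coding windows. The sets differ in GC content, so the share was also taken in bands of GC, where the member share was 17.2% below 40% GC, 8.07% at 40 to 45%, 7.31% at 45 to 50%, 3.09% at 50 to 55% and 0.667% above. All coding windows gave 17.8%, 9.48%, 5.23%, 2.57% and 0.980%, each inside the interval of the members' share. Of the 61 windows, 35 held the core wholly in coding bases and 26 outside them or across an exon's edge, and in 25 the core was within 25 bp of the summit. A core was in 1 of the 59 members held high by both replicates (1.7%). It was in 8.21% of those held high by replicate 1 alone, 6.19% by replicate 2 alone and 8.52% by neither. These groups also differ in GC content, and its part in these shares was not tested. Replicate 1's own list, with lower GC, gave 11.6%, and replicate 2's gave 7.25%. Coding windows were cut wholly inside exons, whereas 464 of the 883 member windows (52.5%) were wholly coding.

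The other motifs searched were 6-mers counted on both strands, which may overlap each other. CAGCTG, a form of the E-box read by basic helix-loop-helix proteins, was in 86 member windows (9.74%, 7.86 to 11.9%), against 5.62% of weaker coding windows, 5.58% of all coding windows and 2.92% of other strong windows. The difference lay in GC-rich windows: below 50% GC the member share was 5.22 to 5.94% and that of coding windows 3.46 to 6.45%. Above 55% GC it was 22.7% (16.2 to 30.2%) in members, 13.8% (10.8 to 17.4%) in weaker coding and 14.8% (13.6 to 16.1%) in all coding windows, so there the interval of the members lay just above the last. In the printed windows of col-183 and ram-2, CAGCTG runs from the codons cca and gct into a glycine codon. The window of pes-4 also holds it. Its share without the collagens was not taken, so what their repeats add to it was not tested. CACGTG was in 5.44, 4.73, 4.08 and 2.39% of members, weaker coding, all coding and other strong windows. TAATGA was in 3.96, 5.94, 7.83 and 5.84%, TAATGG in 3.17, 4.99, 5.64 and 3.55%, and GTTCGA in 6.46, 6.74, 8.33 and 4.93% of the same sets. GCGCGC was in 1.02% of members against 0.443% of weaker coding and 4.14% of other strong windows, and GAGAGA in 8.38%, 7.86% and 13%. GGNCCN spells a glycine and a proline codon when read in frame, but it was counted in any frame and on both strands. It was in 27.2% of members, against 19.8% of weaker coding, 16.04% of all coding and 18.6% of other strong windows.

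Repeated sequence was rare at members. Only 22 of the 883 windows (2.49%, 1.57 to 3.75%) held a 36-base word that occurs elsewhere in the genome, 36 being an assumed read length. The share was 3.57% at weaker coding summits, 8.19% over all coding windows and 13.4% (11.9 to 14.99%) at the other strong summits. Of the 43 collagen windows, 6 held such a word, and so did that of his-24. Another annotated non-coding gene covered the summit at 8 members (6 of type ncRNA, 1 antisense RNA and 1 piRNA), so at these the coding exon is not the only feature.

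Most host genes held a single member. Of the 819, 759 held 1, 56 held 2 and 4 held 3, and 442 also had a weaker coding summit. The genes with 3 were unc-11, which encodes a clathrin adaptor of the AP180 type, mcd-1, a modifier of cell death, frm-1, which encodes a FERM domain protein, and Y22D7AL.9. The next by signal was set-16 with 2 (81.8 and 55.6). The summits of unc-11 (62.9, 61.4 and 54.8) lay in coding exons 2, 10 and 7 of 10, more than 1 kb apart. Those of mcd-1 (62.1, 56.6 and 52.3) had window GC of 70.2%, 39.7% and 58.3%. In frm-1, 2 of the 3 (56.4 and 54.1) were in 1 exon of 11688 bp. Members of 1 gene share their source and are not independent.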

How the data were processed

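The series holds CEH-9 ChIP-seq from whole late embryos, 1 group with 2 biological replicates. Per the file notes, the authors called a relaxed peak list on each replicate with a control and on both replicates pooled, and derived a reproducible list from these. The aligner, peak caller and versions were not given in the sources used here. Each peak's deposited signal is its height on the scale of the authors' peak caller. That scale differs between lists, so signal was used for ranks within a list. The deposited −log10 q, also the authors' own, was described and not tested, and summits came from the deposited offset. The lists in the ce10 build were not used here. No read counts are given, so depth is unknown.

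Summits were placed on Ensembl 115 genes, whose assembly is that of the ce11 lists, and sequence came from the RefSeq genome. Windows ran 75 bp to each side of a summit. A replicate summit matched within 100 bp. Words of 36 bases, an assumed read length, marked repeated sequence. Gene lists (26) were built from gene symbols. Members and lists were chosen with earlier results of these data known. Genes named were the hosts of the 25 strongest members, the 5 summits to each side of the rank limit, up to 4 hosts per list and the 5 genes with most members. The collagens past the first 4, the genes with glycine triplet runs and examples high in both replicates were named after their values were seen. The comparison between replicate lists was also added after the data were seen. Motif and repeat counts were checked on made-up sequence. Classification was checked at annotated coding edges and, for genic against intergenic only, at random genome positions. Scripts ran in Python 3.11.15 with scipy 1.17.1, numpy 2.4.6 and, for figures, matplotlib 3.10.9.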

Additional observations from a re-analysis of the deposited data

How the results depend on the processing

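Of 60 alternatives to the main values, 38 stayed within the main value's interval (for counts, within 1.5 times) and 22 moved past it. With each replicate's own list in turn, the lowest and highest values were as follows. The coding share ran from 28.67% to 32.57%, median GC from 44.37% to 48.34%, median exon length from 289.5 to 355 bp and the share of windows with a homeodomain core from 7.245% to 11.57%. The collagen hosts ran from 19 to 52 and the genes with 2 or more members from 37 to 64. Ranks 1 to 1000 gave a median GC of 50.33%, an exon length of 409 bp, a repeated word in 4.762%, 26 collagen hosts and 10 genes with 2 or more members, and ranks 1 to 5000 gave 136 such genes. Windows of 50 and 150 bp to each side gave 48.51% and 45.51% GC and a core in 4.417% and 16.19%. Words of 50 bases were repeated in 1.019%. The share of members held high by both replicates was 3.624% within 50 bp, 10.53% within 210 bp, 1.246% among the 1000 strongest of each, 59.8% over the whole lists and 21.03% for pooled ranks 1 to 1000. The causes of these shifts were not tested beyond what the settings themselves change. Signal cannot be set against sequencing depth or an untagged strain here. No paired analysis was possible because there is a single group.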
